A study of Mus musculus with 11 samples.

Results

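The expression of a set of 10 primary microcephaly and centrosome genes was followed in the embryonic mouse forebrain with and without Kif20a. Most of them encode centrosome or spindle pole proteins. The genes were chosen by symbol, as Aspm, Wdr62, Cdk5rap2, Mcph1, Cenpj, Stil, Cep135, Cep152, Cep63 and Nde1, and all 10 were among the 20475 genes of both expression tables. Their RNA was present in every library, and for 8 of the 10 genes the knockout and wild-type libraries overlapped in both comparisons. In the germline knockouts, Cep152 and Cep135 stood at 125% and 126% of their wild-type means, with every knockout library above every wild-type library, as in 5.90% of all genes tested. Both had an unadjusted P of at most 0.05, as did 5.39% of all genes, but neither passed adjustment over all genes nor reached a 1.5-fold change. In the inducible knockouts none of the 10 passed an unadjusted P of 0.05, which 6.01% of all genes did, and all 10 overlapped between the groups.

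The cortex is built by radial glial progenitors that divide at the ventricular surface, and the centrosome organizes the spindle on which each of them divides. A centrosome holds a pair of centrioles, which are copied in every cell cycle, and a surrounding pericentriolar material that nucleates microtubules. Primary microcephaly is a small brain of otherwise largely normal structure, and many of its genes act in copying centrioles, in building the pericentriolar material or in focusing spindle poles. Kif20a encodes a mitotic kinesin of the central spindle and midbody, and so acts at the end of the same divisions.

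Poly(A) RNA was sequenced from E12.5 embryos, with 3 wild-type and 3 knockout libraries in the germline comparison and 2 wild-type and 3 knockout libraries in the inducible one. Germline knockouts carried the knockout-first allele, in which a LacZ and neomycin cassette interrupts Kif20a after exon 4, and their controls were wild-type littermates. The inducible knockouts carried Nestin-CreERT2 with Kif20a fl/fl. Their littermate controls are labelled wild type, and elsewhere in the study the controls of this cross are Kif20a fl/fl. Tamoxifen, which lets CreERT2 enter the nucleus, was given to the mothers of both inducible groups at E9.5 and E10.5, and to no germline group as far as the methods say. Both alleles descend from 1 targeted embryonic stem cell clone, and Nestin restricts the Cre to neural progenitors and their descendants. The labels name the tissue forebrain and the methods name cortical cells. Nothing states whether each library came from a separate embryo, so p-values measure the spread between these libraries.

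The deposited values are normalized counts, here analysed as log2(normalized count + 1), with each comparison tested alone by limma. Totals lay between 13048716 and 15551274 normalized counts in the germline and between 24118520 and 24497307 in the inducible libraries. The targeted gene was lower in every knockout library. Germline wild types held 2456, 2295 and 2680 normalized counts of Kif20a, and their knockouts held 409, 374 and 503 (log2 fold change -2.54, standard error 0.15, adjusted p = 0.00845 by limma). Inducible wild types held 4760 and 4844, and their knockouts 3125, 2915 and 2853 (log2 fold change -0.70, adjusted p = 0.0107 by limma), so the inducible knockouts kept 61.7% of the wild-type level. All 5 forebrain identity genes checked, among them Emx1 and Pax6, were present in all libraries, though at uneven levels among the germline knockouts. In the germline wild types they summed to 12874 to 14266 normalized counts, and in knockout replicates 1, 2 and 3 to 8828, 25691 and 11654. Inducible sums were 26495 to 29587 in the wild types and 23914 to 30214 in the knockouts.

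Germline knockout replicate 2 stood apart, at 91.2 on a first principal component carrying 58.0% of the variance, against -38.4 to 3.84 for the other germline libraries. The 8 neuronal markers summed to 42918 to 51652 normalized counts in the germline wild types and to 21825, 87041 and 28012 in knockout replicates 1, 2 and 3. The 8 cranial mesenchyme markers summed to 4153 to 7386 in the wild types and to 16891, 492 and 9054 in the knockouts, and 4 of the 8 fell under 3 counts in knockout replicate 2. The 6 microglial markers summed to 313 to 466 in the wild types and to 295, 15.1 and 355 in the knockouts, with 4 of the 6 under 3 counts and 1 at 0 in a knockout library. In the inducible libraries the neuronal sums were 56827 to 67411 in the wild types and 60088 to 71850 in the knockouts, and the mesenchyme sums were 9765 to 15523 and 11927 to 13910. The part that tissue makeup plays in the values below was not tested, and in bulk RNA fewer cells of a type cannot be told apart from less RNA per cell. The 4 Y-linked genes checked summed to 1.96 and 4.24 in the inducible wild types and to 2389 to 3209 in all 3 inducible knockouts. Embryo sex and genotype therefore cannot be told apart there. The germline sums were 1714, 9.83 and 4582 in the wild types and 4.49, 0 and 1376 in the knockouts. Both germline groups thus mix high and near-zero sums, but not evenly.

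**Figure D1:**
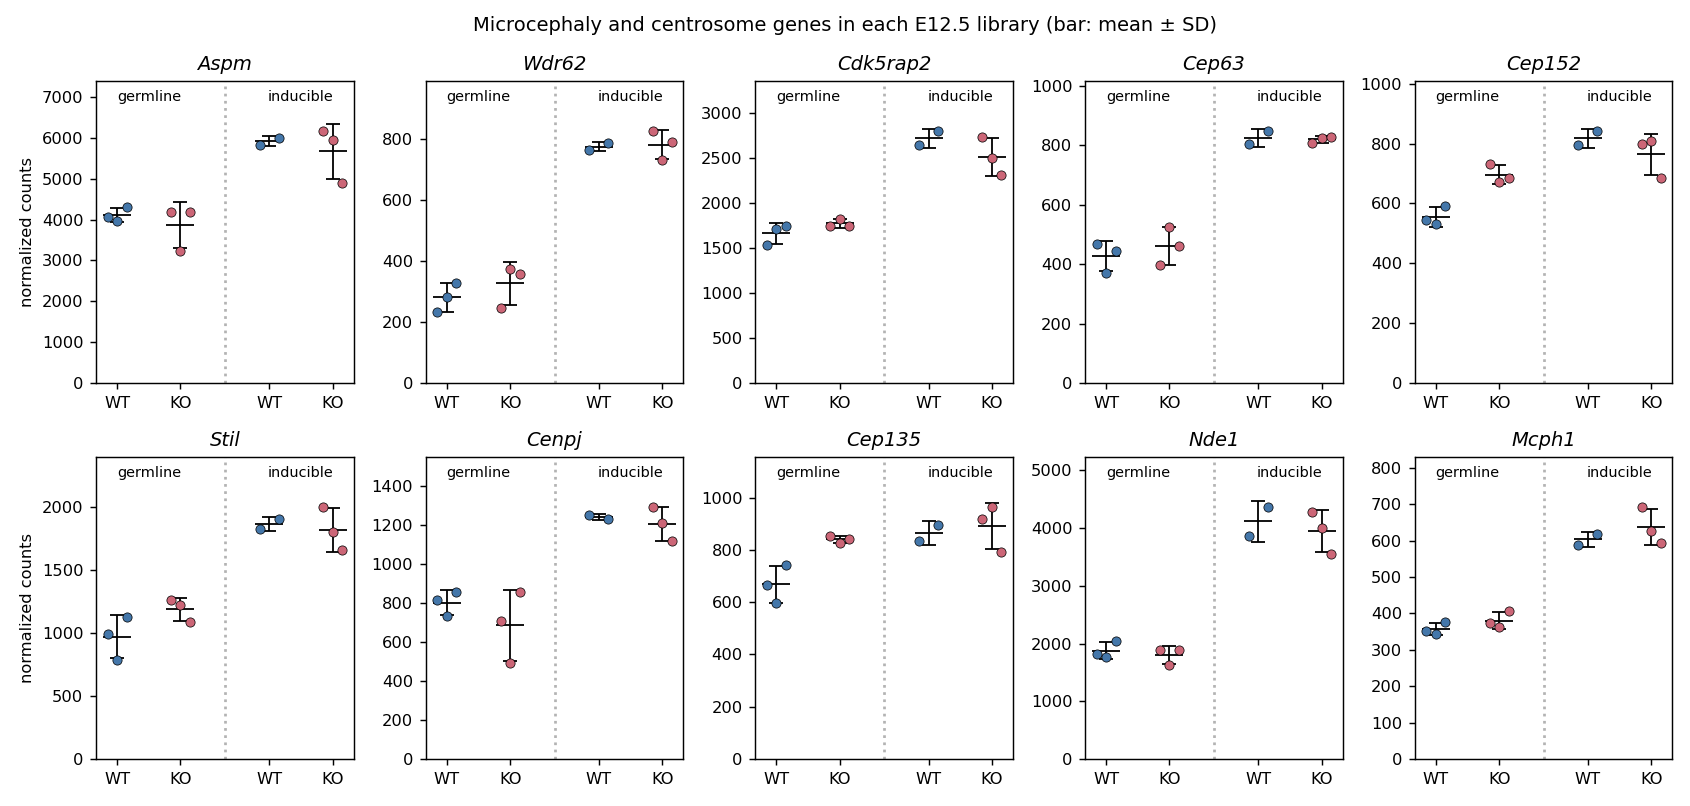
Normalized counts of the 10 genes in each library (points), with the mean ± SD of each group (bars), for germline wild type (n = 3) and knockout (n = 3) and inducible wild type (n = 2) and knockout (n = 3). The knockout points lie clear above the wild-type points only for Cep152 and Cep135 in the germline comparison, and the tables were normalized separately, so levels are not compared between the left and right of a panel.

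Levels of different genes can be compared only per exon length, and on the scale of normalized counts per kilobase of exon the 10 genes spanned more than an order of magnitude in wild-type tissue. Nde1 was the most abundant, at 586 ± 45.5 per kilobase (SD, n = 3 germline wild types), followed by Aspm at 357 ± 15.5. Cenpj (183 ± 14.5) and Stil (166 ± 29.4) came next, with ranges over the 3 libraries that overlapped. Cdk5rap2 (128 ± 8.85) overlapped neither neighbour, though its highest library, at 134.4, lay just under the lowest of Stil, at 135.1. Cep152 (96.3 ± 5.76) and Cep135 (93.0 ± 10.01) overlapped each other. The lowest were Cep63 (57.5 ± 6.81), Wdr62 (49.1 ± 8.20) and Mcph1 (45.7 ± 2.06), whose neighbouring ranges also overlapped.

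The inducible wild types, normalized apart, gave nearly the same order, from Nde1 at 1284 ± 110 per kilobase (SD, n = 2) and Aspm at 515 ± 10.8 down to Mcph1 at 77.3 ± 2.60. There Stil (320 ± 10.1) lay above Cenpj (284 ± 3.20), the reverse of the germline order, and Wdr62 (135 ± 2.68) lay between Cep152 (142 ± 5.58) and Cep135 (120 ± 6.25). With 2 libraries no neighbouring ranges overlapped, though ranges of 2 values are narrow by construction. The order of the levels rests on exon lengths of the GENCODE gene models for mm9, from 3205 bases for Nde1 to 13018 bases for Cdk5rap2. Reads were counted over RefSeq exons, so the exons counted and the exons measured may differ for a gene. How far the order depends on this was not tested.

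**Figure D2:**
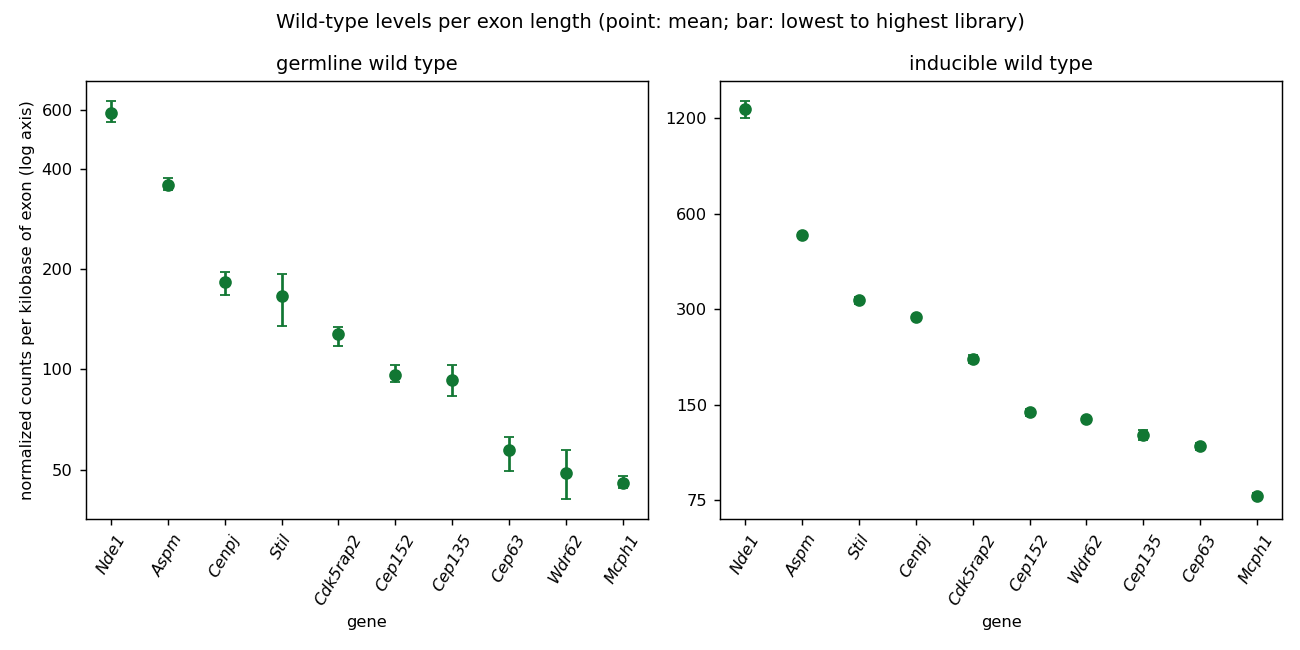
Wild-type levels in normalized counts per kilobase of exon (log axis) for the 10 genes, with points at the mean and bars from the lowest to the highest library (germline n = 3, inducible n = 2). Nde1 and Aspm were the most abundant and Mcph1 the least abundant in both tables.

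Knockout minus wild-type log2 fold changes of the 10 genes lay between -0.26 (Cenpj) and 0.34 (Cep135) in the germline comparison, with a median of 0.10, against a median of -0.04 over all 13938 genes tested. Of the 10 genes, 7 were higher in the knockout mean, against 44.0% of all genes. An unadjusted P of at most 0.05 was reached by 2 of 10, both higher, where 5.39% of all genes reached it in either direction and 2.93% as higher genes. None of the 10 passed the study's joint thresholds, at least a 1.5-fold change together with a P no higher than 0.05, against 2.74% of all genes. No member had an adjusted p under 0.05 (lowest 0.779 by limma), as 0.00717% of genes did, which is Kif20a alone. In 2 of the 10 genes every knockout library lay above every wild-type library, against 5.90% of all genes, and in none did every knockout lie below, against 7.55%.

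The inducible comparison was tighter and gave smaller differences. Its 10 log2 fold changes lay between -0.12 (Cdk5rap2) and 0.08 (Mcph1), with a median of -0.04, against a median of -0.002 over all 14081 genes tested. None of the 10 reached an unadjusted P of 0.05 (lowest 0.173 by limma), where 6.01% of all genes did. None passed the joint thresholds, against 1.29% of genes, or had an adjusted p under 0.05, against 0.0355%. Groups overlapped for all 10, while 10.4% of all genes had every knockout above every wild type and 12.2% every knockout below. The 95% intervals of all 10 differences lay between -0.32 and 0.28 on the log2 scale, that is between 0.804-fold and 1.22-fold, so that differences of 1.5-fold lay outside every interval. In the germline comparison the intervals of only 5 of the 10 stayed within 1.5-fold.

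**Figure D3:**
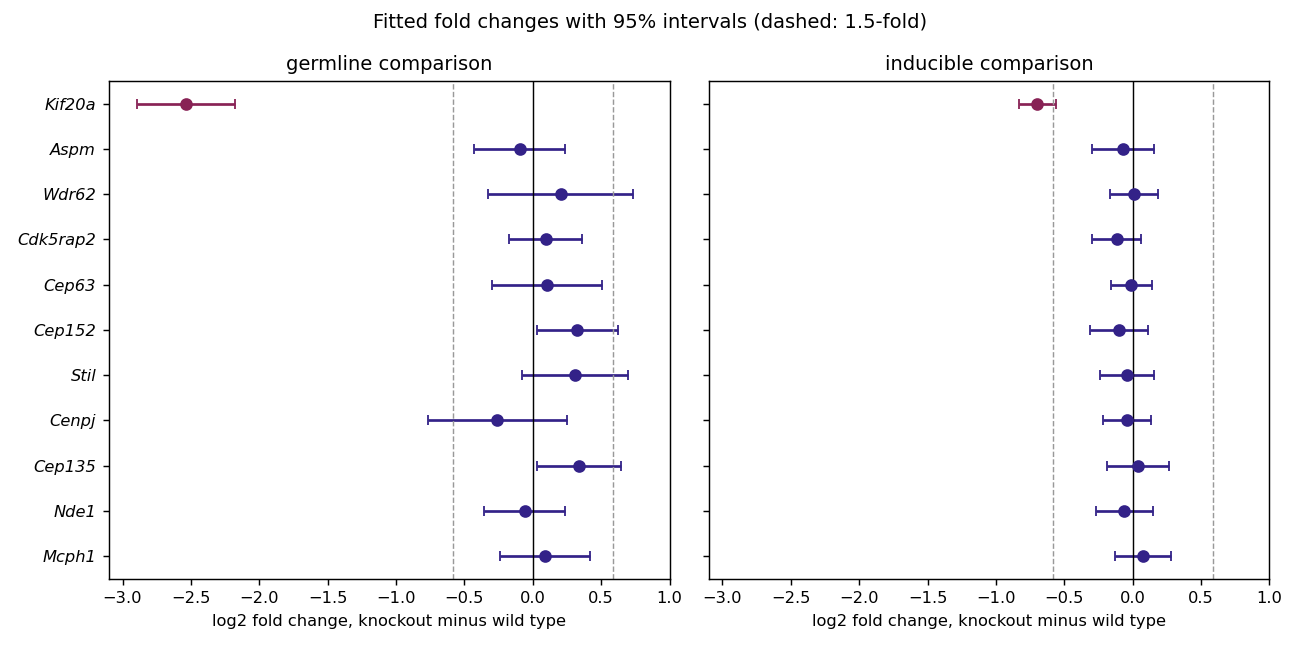
Fitted log2 fold changes, knockout minus wild type, with 95% intervals from limma for Kif20a and the 10 genes in the germline (left, 3 against 3) and inducible (right, 2 against 3) comparisons, with dashed lines at 1.5-fold. Intervals exclude 0 for Cep152 and Cep135 in the germline panel and for Kif20a in both.

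Centriole duplication starts at a ring around the parent centriole, where Cep63 helps to recruit Cep152, which in turn binds Plk4, the kinase that starts the new centriole. Cep152 (mm9 chr2:125388824-125450849, minus strand) read 543, 530 and 593 normalized counts in the germline wild types and 731, 672 and 685 in the knockouts. All 3 knockout libraries lay above all wild types by at least the gap from 593 to 672 (log2 fold change 0.33, 95% interval 0.03 to 0.62, unadjusted P = 0.0350 and adjusted p = 0.779 by limma). Inducible Cep152 values were 795 and 841 in the wild types and 797, 809 and 685 in the knockouts, with knockout replicate 3 the lowest and the groups overlapping (-0.10, interval -0.32 to 0.11). Its partner Cep63 (chr9:102488908-102528864, minus strand) read 468, 371 and 446 in the germline wild types and 398, 524 and 461 in the knockouts, which overlapped (0.10, interval -0.30 to 0.51). Inducible Cep63 had the smallest standard error of the 10 genes (0.06), at 804 and 847 against 807, 825 and 829 (-0.01, interval -0.16 to 0.14).

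Cep135, which ties the cartwheel at the core of a new centriole to the microtubule wall, gave the other separated groups. Cep135 (chr5:77017723-77075491, plus strand) read 664, 598 and 742 in the germline wild types and 853, 828 and 844 in the knockouts. The 3 knockout libraries were closer to each other than the wild types were, and all lay above them (0.34, interval 0.03 to 0.65, unadjusted P = 0.0367 and adjusted p = 0.779 by limma). In inducible libraries Cep135 read 834 and 897 in the wild types and 921, 964 and 792 in the knockouts, with knockout replicate 3 again the lowest (0.04, interval -0.19 to 0.27). The exact permutation p for Cep152 and Cep135 in the germline comparison was 0.1, the smallest that 3 against 3 libraries can give.

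The 2 germline differences were of like size in each knockout library. Against the wild-type mean, Cep152 was higher by 0.40, 0.28 and 0.30 and Cep135 by 0.36, 0.31 and 0.34 (log2) in replicates 1, 2 and 3. Both genes are described for their separated groups, so a like sign in the 3 libraries is no further result. In the same libraries the list medians were -1.13, 0.92 and -0.83 for neurons, 0.16, 0.32 and 0.06 for radial glia, 1.63, -4.95 and 0.81 for cranial mesenchyme and 2.08, 2.54 and 0.21 for 20 hypoxia and glycolysis genes. The 8 radial glia genes went both ways, with fitted log2 fold changes from -0.80 to 0.73. The list medians were 0.07, 0.17 and 0.05 for centriole assembly genes and 0.02, 0.07 and 0.07 for other microcephaly genes. The part of any of these lists in the 2 differences of Cep152 and Cep135 was not tested. Without germline knockout replicate 2 the differences were 0.35 for both genes (unadjusted P = 0.0298 for Cep152 and 0.0368 for Cep135 by limma), in a fit where 14.4% of all genes had an unadjusted P of at most 0.05. Neither gene passed 0.05 when wild-type replicate 1, wild-type replicate 2, knockout replicate 1 or knockout replicate 3 was left out, and without wild-type replicate 3 Cep135 alone did (unadjusted P = 0.0392, against 0.0601 for Cep152, by limma).

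Stil and Cenpj act next, Stil with Sass6 in laying down the cartwheel and Cenpj in lengthening the new centriole by binding tubulin. Stil (chr4:114672723-114715801, plus strand) read 989, 789 and 1130 in the germline wild types and 1261, 1219 and 1088 in the knockouts. Only the lowest knockout fell below the highest wild type, and the difference missed the threshold (0.31, interval -0.08 to 0.69, unadjusted P = 0.101 by limma). Inducible Stil read 1824 and 1907 in the wild types and 2000, 1799 and 1657 in the knockouts (-0.04, interval -0.24 to 0.15). Cenpj (chr14:57145598-57190683, minus strand) read 816, 731 and 855 in the germline wild types and 706, 491 and 855 in the knockouts. Its low mean in the knockouts came with 1 library, replicate 2, at 491, while replicate 3 matched the highest wild type (-0.26, interval -0.77 to 0.25, and -0.04 without replicate 2). Inducible Cenpj read 1248 and 1229 against 1290, 1210 and 1116, again lowest in knockout replicate 3 (-0.04, interval -0.22 to 0.13).

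Promoter windows from RefSeq (GRCm38.p6, not the mm9 build of the tables) were found for 9 of the 10 genes, and 4 are shown from 220 bases before to 30 bases after the start site, namely those of Cep152, Cep135 and Stil, the centriole genes with the highest germline differences, and of Aspm for contrast. Capitals mark CCAAT, the letters bound by NF-Y, TTTGAA or TTCGAA, the cell cycle homology region of many G2/M genes, and TTGGCGC or TTCCCGC, forms of the E2F site, each on either strand. They lie at chr2:125625084-125625333 (Cep152, minus strand), chr5:76588479-76588728 (Cep135, plus), chr4:114999898-115000147 (Stil, plus) and chr1:139454553-139454802 (Aspm, plus).
Cep152: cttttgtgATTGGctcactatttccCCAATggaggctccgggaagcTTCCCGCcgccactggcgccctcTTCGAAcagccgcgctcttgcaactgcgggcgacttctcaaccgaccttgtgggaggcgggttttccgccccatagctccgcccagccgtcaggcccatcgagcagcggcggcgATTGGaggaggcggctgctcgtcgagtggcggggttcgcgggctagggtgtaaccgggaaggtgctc
Cep135: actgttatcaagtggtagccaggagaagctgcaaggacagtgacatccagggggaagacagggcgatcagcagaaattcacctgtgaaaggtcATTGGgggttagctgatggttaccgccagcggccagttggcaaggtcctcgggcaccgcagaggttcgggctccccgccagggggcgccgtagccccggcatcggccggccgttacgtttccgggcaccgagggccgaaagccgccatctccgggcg
Stil: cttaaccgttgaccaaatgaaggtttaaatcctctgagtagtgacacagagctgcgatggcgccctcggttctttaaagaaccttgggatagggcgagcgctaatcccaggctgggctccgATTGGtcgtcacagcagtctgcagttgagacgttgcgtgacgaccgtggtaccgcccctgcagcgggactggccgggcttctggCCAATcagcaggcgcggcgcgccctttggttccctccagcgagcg
Aspm: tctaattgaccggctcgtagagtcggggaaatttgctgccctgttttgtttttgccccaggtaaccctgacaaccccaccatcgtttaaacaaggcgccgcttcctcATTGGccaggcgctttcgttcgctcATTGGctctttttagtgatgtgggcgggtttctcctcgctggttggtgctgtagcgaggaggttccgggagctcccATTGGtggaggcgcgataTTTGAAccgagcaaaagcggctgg

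All 3 kinds of motif were found in the Cep152 window, CCAAT at -212, -195 and -37 from the start site, the E2F letters at -174 and the cell cycle homology region at -151. Cep135 held a single CCAAT, at -127. In Stil, CCAAT was found at -99 and -15, and also at -241 with E2F letters at 44, both beyond the stretch shown. Aspm held CCAAT at -113, -88 and -12 and the cell cycle homology region at 7. Over the full windows of 300 bases, CCAAT was present in 6 of the 9 genes against 37.4% of all 32851 windows, the cell cycle homology region in 3 of 9 against 19.2%, the E2F letters in 3 of 9 against 6.81% and GGGCGG, the letters of an SP1 site, in 9 of 9 against 35.7%. All windows, 32851 for 27025 symbols, were not matched to the members in GC content or expression, and the shares were not tested. CCAAT and the E2F letters were also found together in Wdr62, and CCAAT in Nde1, while Cenpj and Cep63 held GGGCGG alone. Cep152 and Cep135 shared only CCAAT and GGGCGG among these letters, and a match does not show that a factor binds.

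At the spindle poles, Aspm gathers microtubule minus ends, Wdr62 supports pole integrity and Cdk5rap2 brings gamma-tubulin complexes to the pericentriolar material. Aspm (chr1:141351350-141390667, plus strand) read 4063, 3953 and 4302 in the germline wild types and 4179, 3230 and 4196 in the knockouts. Replicates 1 and 3 lay within the wild-type range and replicate 2 below it (-0.10, interval -0.43 to 0.24). Inducible Aspm read 5826 and 6001 against 6154, 5953 and 4896, where replicate 3 was the low one (-0.07, interval -0.30 to 0.16).

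Wdr62 (chr7:31025157-31065438, minus strand) had the widest standard error of the 10 genes in the germline comparison (0.22 on the log2 scale), at 235, 283 and 329 in the wild types and 248, 376 and 358 in the knockouts. Its groups overlapped, with the lowest values in replicate 1 of each (0.20, interval -0.33 to 0.73). Inducible Wdr62 was level, at 765 and 786 against 825, 730 and 789 (0.01, interval -0.17 to 0.19). Its exons share 264 bases with those of Thap8 on the opposite strand, 4.60% of its exon length, and strand-aware counting is not stated. Cdk5rap2 (chr4:69877890-70071477, minus strand) read 1533, 1709 and 1749 in the germline wild types and 1746, 1824 and 1746 in the knockouts, which overlapped narrowly (0.09, interval -0.17 to 0.36). Inducible Cdk5rap2 read 2641 and 2794 against 2729, 2497 and 2312 (-0.12, interval -0.30 to 0.06). Leaving out inducible knockout replicate 1, whose value was within the wild-type range, gave -0.18 with an unadjusted P of 0.0337 by limma.

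Nde1 binds LIS1, the product of Pafah1b1, and dynein, the motor that positions spindles and nuclei. Nde1 (chr16:14163368-14193021, plus strand) read 1815, 1774 and 2045 in the germline wild types and 1894, 1622 and 1895 in the knockouts, with replicate 2 alone below the wild types (-0.06, interval -0.36 to 0.24). Inducible Nde1 read 3865 and 4364 against 4273, 4008 and 3554, with replicate 3 below both wild types (-0.06, interval -0.27 to 0.15). Its paralog Ndel1, which also binds LIS1, gave log2 fold changes of -0.04 in both comparisons.

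Mcph1, or microcephalin, holds back chromosome condensation until mitosis through condensin II and also serves in the response to DNA damage. Mcph1 (chr8:18595131-18803189, plus strand) read 351, 345 and 375 in the germline wild types and 372, 361 and 407 in the knockouts. A single knockout lay above the highest wild type (0.09, interval -0.24 to 0.42). Inducible Mcph1 read 589 and 618 against 692, 628 and 595, which overlapped (0.08, interval -0.13 to 0.28).

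Across libraries, the 10 genes did not move as a block in the germline comparison. Aspm, Cenpj and Nde1 were each lowest of all 6 libraries in knockout replicate 2, at -0.35, -0.70 and -0.21 (log2) from the wild-type mean, where the median of 35 S phase genes was -0.60 and that of 45 G2/M genes -0.13. In the same library Wdr62 was at 0.43, Stil at 0.35, Cep135 at 0.31, Cep63 at 0.30 and Cep152 at 0.28. Being lowest there was common, since 30.5% of all genes were lowest in that library and 3 of the 10 members were. Another 5 members, Mcph1, Stil, Cep135, Cep152 and Cep63, were lowest in wild-type replicate 2, against 11.3% of all genes, and the median of the G2/M genes there was -0.11. Centring the libraries on the G2/M genes left Cep152 and Cep135 at 0.27 and 0.29 and both above an unadjusted P of 0.05.

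In the inducible libraries the members moved more nearly together. Knockout replicate 3 was the lowest library for 7 of the 10 genes, against 23.2% of all genes, and knockout replicate 1 the highest for 5, against 22.7%. This was not particular to the members. Of the 45 G2/M genes, 24 were lowest in knockout replicate 3 and 24 highest in knockout replicate 1. Of the 32 centriole assembly genes, 16 were lowest in knockout replicate 3 and 12 highest in knockout replicate 1. The summed normalized counts of the 10 genes were 19191 and 20285 in the wild types and 20488, 19422 and 17224 in the knockouts. The median of the G2/M genes ran from 0.07 in knockout replicate 1 to -0.08 in replicate 3 and that of the neuronal markers from 0.03 to 0.27. Over the 5 inducible libraries the Pearson correlation of log2 values between pairs of members had a median of 0.62, and over the 6 germline libraries one of 0.32, described here with no test, since every pair shares the same few libraries.

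**Figure D4:**
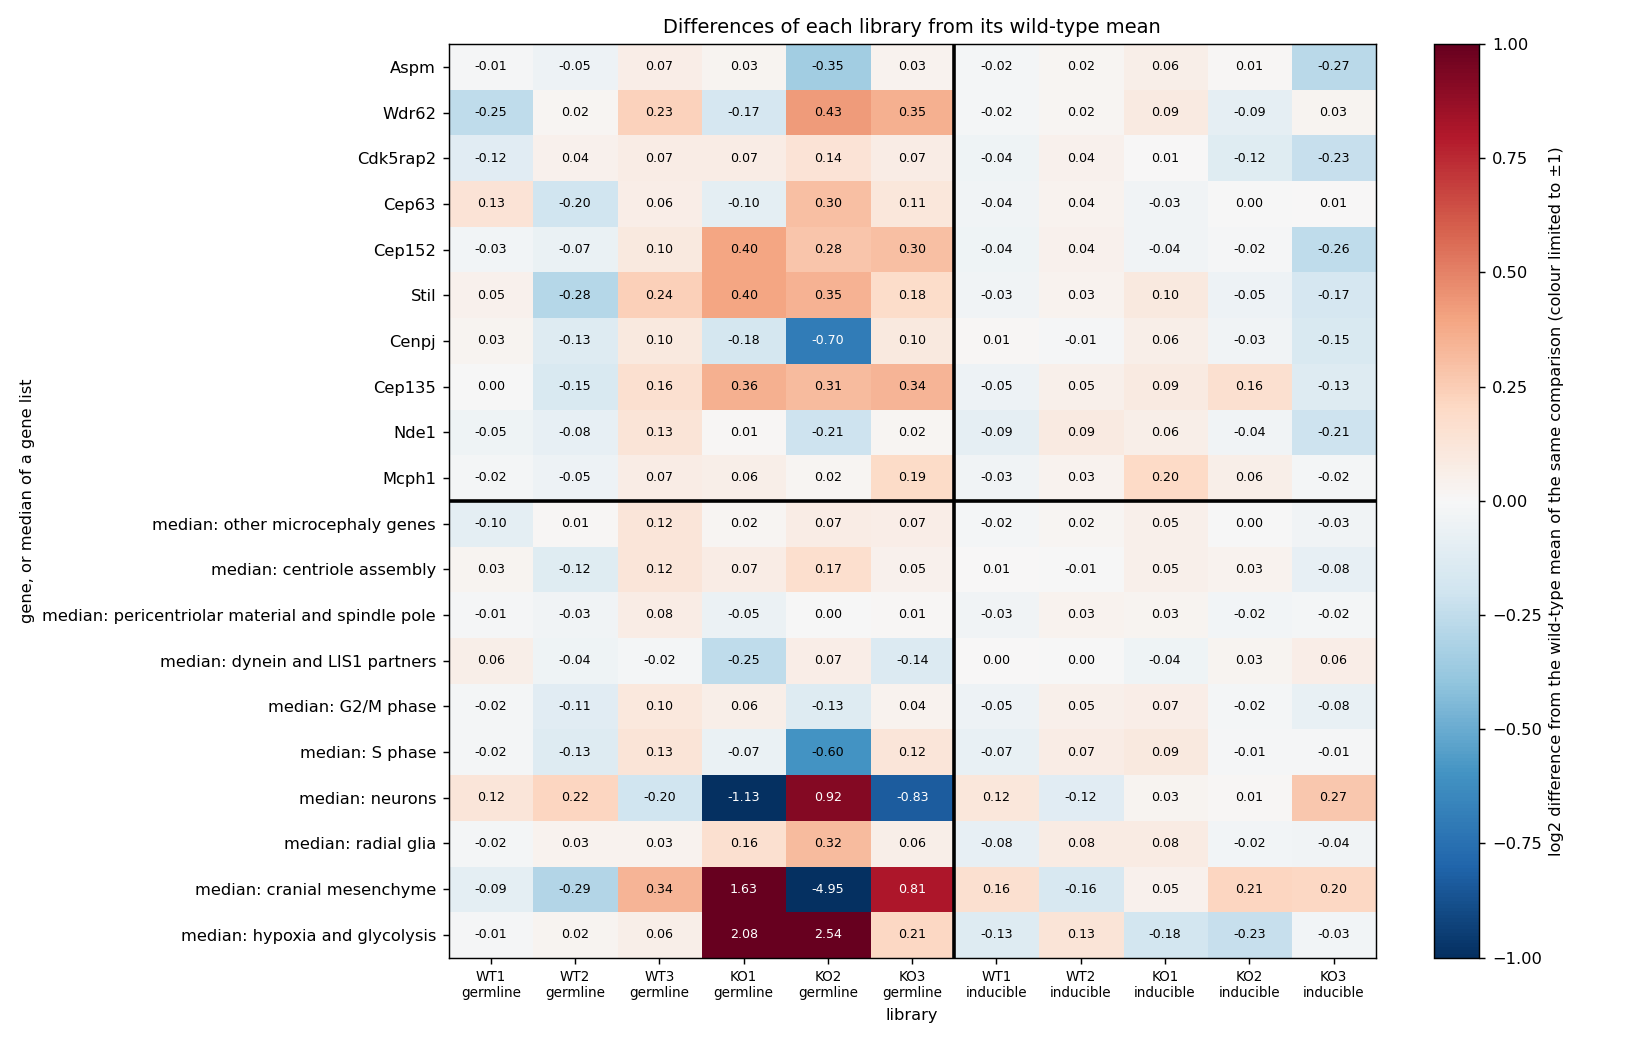
Log2 difference of each library (columns) from the wild-type mean of its own comparison, for the 10 genes (upper rows) and for the medians of companion gene lists (lower rows), with colour limited to ±1 and values printed. Cep152 and Cep135 were higher by 0.28 to 0.40 in all 3 germline knockouts, and the cranial mesenchyme median ran from -4.95 to 1.63 among those libraries.

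The pair of members most alike over all 11 libraries, after centring each table on its mean, was Cep135 and Cep152 (Pearson r = 0.92), followed by Aspm and Nde1 (0.90). For Cep135 and Cep152 r was 0.96 over the germline and 0.75 over the inducible libraries, where Aspm and Cep152 reached 0.94. Both Cep135 and Cep152 are described for their separated germline groups, so their likeness over the germline libraries is no further result. Among the 13741 genes tested in both tables, the most like Stil was Bora (r = 0.98), which helps Aurora A to activate Plk1, and the most like Wdr62 was Tubgcp6 (0.98), a gamma-tubulin complex subunit. Among the 5 genes most like Nde1 were Ska3 (0.90), a kinetochore subunit, and Topbp1 (0.90), a replication checkpoint protein. Mre11a, a DNA break sensor, was most like Mcph1 (0.93). For Cep152 the closest was Stim1 (0.95), a calcium sensor of the endoplasmic reticulum, and for Cenpj it was Slc26a2 (0.99), a sulfate transporter. These are descriptions over 11 libraries that all genes share.

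Other genes of the pathway were read from lists in the germline comparison. Among 28 further microcephaly genes, 1 was higher and none lower with an unadjusted P no higher than 0.05, where 2.93% of all genes were higher and 2.45% lower at that P, and the median log2 fold change was 0.05. A share of 1 in 28 is near that background, and the same shares stand behind the counts of the lists that follow. That gene was Cit, citron kinase of the midbody, at 686, 975 and 1017 in the wild types and 1275, 2012 and 1197 in the knockouts (0.72, unadjusted P = 0.0218 and adjusted p = 0.779 by limma). Its groups did not overlap, its value was 0.49 without knockout replicate 2, and it was -0.08 in the inducible comparison. In this list 2 genes had every knockout above every wild type (5.90% of all genes) and 1 had every knockout below (7.55%). The second of those above was Kif14, a kinesin that binds citron kinase, at 789, 793 and 921 against 1108, 1043 and 934 (0.30, unadjusted P = 0.0578 by limma). The one below was Copb2, a coatomer subunit gene named after its values were seen, at 3998, 3667 and 3648 against 3302, 2024 and 3323 (-0.42, unadjusted P = 0.0803 by limma). Casc5, the kinetochore scaffold Knl1, was at -0.18 and, like Cenpj, lowest in knockout replicate 2.

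Of 32 centriole assembly genes, 1 was higher and none lower (median 0.09). It was Cntrob, which encodes the daughter centriole protein centrobin, at 595, 710 and 765 against 934, 1528 and 847 (0.63, unadjusted P = 0.0334 by limma, and 0.37 without knockout replicate 2). The kinase Plk4 was at -0.11 and its cartwheel partner Sass6 at -0.03, with signs that turned, to 0.07 and 0.15, without knockout replicate 2. Of 38 pericentriolar and spindle pole genes tested, 1 was higher and 1 lower, with a median of -0.04 for the list. The higher one was the satellite protein gene Cep72 (0.48, unadjusted P = 0.0305 by limma). Cep192 and Pcnt, scaffolds of the pericentriolar material, were at 0.20 and -0.03, the spindle assembly factor Tpx2 at 0.04 and the mitotic kinase Plk1 at -0.04. None of 21 dynein and LIS1 partners reached the threshold, and 18 of them were lower in the knockout mean, against 56.0% of all genes. Their median log2 fold change was -0.14, with medians of -0.25, 0.07 and -0.14 in knockout replicates 1, 2 and 3. For 3 of the 21 every knockout lay below every wild type, against 7.55% of all genes, and for none did every knockout lie above, against 5.90%. Pafah1b1 was at -0.18, and at -0.29 with an unadjusted P of 0.0326 by limma without knockout replicate 2.

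Cell cycle genes were counted in the same fit. Of 45 G2/M genes 1 was higher, Hjurp, the chaperone of the centromeric histone CENP-A, at 4299, 4464 and 4642 against 7518, 10590 and 5434 (0.76, unadjusted P = 0.0140 by limma), and the median was -0.01. None of 35 S phase genes reached the threshold (median -0.12). Of 20 hypoxia and glycolysis genes 16 were higher (median 1.55), among them Ldha (1.02), Slc16a3 (2.60), P4ha2 (3.15) and Pgk1 (0.85). That list had been known to differ in these libraries and is given here only for scale.

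Among the inducible libraries the same lists gave 1 higher and none lower of the further microcephaly genes (Cdk6, 0.40, unadjusted P = 0.0266 and adjusted p = 0.825 by limma), where 2.98% of all genes were higher and 3.03% lower at that P. The centriole assembly genes held none higher and 1 lower, Cep164, a distal appendage protein gene (-0.15, unadjusted P = 0.0302 and adjusted p = 0.825 by limma). The pericentriolar and spindle pole genes held none higher and 2 lower, Cep131 (-0.23, unadjusted P = 0.00439) and Numa1 (-0.17, unadjusted P = 0.0408, both by limma, lowest adjusted p = 0.727). The dynein list held 1 higher gene, the adaptor gene Bicd1 (0.23, unadjusted P = 0.0118 and adjusted p = 0.798 by limma). The S phase list held 1, Ccne2 for cyclin E2 (0.24, unadjusted P = 0.00626 and adjusted p = 0.740 by limma). None of the 45 G2/M genes reached the threshold. Their medians lay between -0.02 and 0.02, and no adjusted p in these lists was under 0.727. Plk4 (0.03), Sass6 (0.07), Cep192 (0.06), Tpx2 (-0.05), Plk1 (-0.03), Kif14 (0.08), Casc5 (0.05), Pafah1b1 (0.06) and Pcnt (-0.18) also missed it. Of the 20 hypoxia and glycolysis genes, 1 was higher (Ndrg1, 0.86) and 3 were lower (Slc2a1, -0.24, Pfkl, -0.25, and Egln3, -0.27).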

How the data were processed

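Poly(A) RNA libraries of E12.5 forebrain were made with a TruSeq kit. The authors used TopHat (v2.0 in the methods, 1.2.0 in the submitters' processing notes) to place reads on mm9, took 1 count per read and gene over RefSeq exons and scaled the libraries in edgeR with its trimmed mean of M-values, and the deposited signal is this normalized count per gene and library. As the values hold fractions, they were not given to a count model, and the depth behind them is unknown. A shift shared by most genes would be removed by the scaling. No per-sample column was left unused (0).

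Here log2(normalized count + 1) was tested in R 4.3.3 with limma 3.58.1 (lmFit and two-sided eBayes, trend on), each table alone, for genes averaging 10 or more normalized counts, with Benjamini-Hochberg adjustment over all of them. Fold changes on this scale understate those of low genes. The fit was tested on simulated data. All 10 members were tested in both tables. Groups and replicate numbers came from the sample labels. Levels were not compared across tables, and the difference between the comparisons was not tested.

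The members and lists were chosen with earlier results of these data known. The genes named are Kif20a, the members, 11 fixed partners, up to 4 genes per list with the lowest unadjusted P of at most 0.05, and up to 5 genes most like a member. Exon lengths came from GENCODE gene models, and promoter sequences from RefSeq (GRCm38.p6). Mcph1 had no promoter entry. Protein sequences were not analysed here, and a few genes that the rule would name are not reported here.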

Additional observations from a re-analysis of the deposited data

Results flagged for a closer look

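Cep152 was the only one of the 10 genes for which all knockout libraries lay on one side of the wild-type mean in the germline comparison and on the other side in the inducible one, at log2 fold changes of 0.33 and -0.10. The inducible knockouts lay at -0.04, -0.02 and -0.26 (log2) from the wild-type mean in replicates 1, 2 and 3. Replicates 1 and 2 were within the wild-type range, and without replicate 3 the fitted difference was -0.03. The groups overlapped in the inducible libraries, and the difference between the comparisons was not tested. With 2 or 3 libraries in a group, no library was tested as an outlier.

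Among the other named genes, the same held in the direction of higher germline and lower inducible knockouts for Cntrob (0.63 and -0.11), Cep72 (0.48 and -0.12), Cep131 (0.42 and -0.23), Cep164 (0.31 and -0.15) and Hjurp (0.760 and -0.038), and for the glycolysis genes Slc2a1 (1.88 and -0.24) and Pfkl (1.06 and -0.25). It held in the opposite direction for Ccne2 (-0.51 and 0.24), Copb2 (-0.42 and 0.031) and Cdk6 (-0.063 and 0.399). None of these differences was tested.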

How the results depend on the processing

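Kif20a kept its direction and an unadjusted P of at most 0.05 in every setting run, though its adjusted p was 0.106 to 0.185 without any 1 of the germline wild types or knockout replicate 1, 0.142 to 0.193 without either inducible wild type or knockout replicate 2, 0.147 in the inducible fit without the mean-variance trend and 0.300 in the inducible fit with a replicate block. Cep152 and Cep135 stayed higher in the germline knockouts throughout (0.27 to 0.37 and 0.26 to 0.42), but the number of members with an unadjusted P of at most 0.05, 2 as reported, was 0 after centring on G2/M genes, 0 with the replicate block, 0 per kilobase, 1 without the mean-variance trend and 1 with a Y-linked covariate, and from 0 to 2 when 1 library was left out. In the inducible comparison it was 0 to 1 when 1 library was left out. The median member difference there, -0.04, ran from -0.102 (without knockout replicate 1) to 0.012 (without knockout replicate 3). It was also 0.012 with the replicate block, which is no separate check. Only a knockout carries replicate number 3 there, so the block takes that library out of the comparison and gives the same differences. No member passed the joint thresholds in any setting. The causes were not tested.

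Whether replicate numbers pair the libraries could not be decided, since deviations were taken from means of only 2 or 3 libraries. Deviations from the group mean correlated at -0.116, 0.306 and 0.247 between same-numbered germline libraries and at -0.352 and -0.051 between inducible ones. Differently numbered libraries correlated at -0.357 to 0.334 in the germline and at -0.310 to 0.352 in the inducible comparison. The block moved the germline count of all genes with an unadjusted P of at most 0.05 from 751 to 603 and the inducible one from 846 to 454. The inducible block also takes knockout replicate 3 out of the comparison, and leaving that library out without a block gave 777 genes. Array weights, or leaving out germline knockout replicate 2, gave 2071 and 2013 germline genes.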
